A study of Rattus norvegicus with 35 samples.

Results

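The baseline set of microRNAs (miRNAs) in rat liver was described from the 8 vehicle control libraries of a small RNA sequencing series of 35 libraries. The control columns of the deposited count table were taken by their labels: 3 libraries after 3 days of dosing, 3 after 7 days and 2 after 14 days. All animals were male Sprague-Dawley rats, 6 weeks old, and the controls received 0.5% methylcellulose, the vehicle of the antifungal drug ketoconazole, for those 3 durations. Livers were taken 24 h after the last dose. For one set of comparisons, 18 libraries of rats given ketoconazole at 30 mg/kg (middle dose) or 100 mg/kg (high dose) per day for the same durations were set beside the controls, with 3 libraries per dose and day. These and the 9 libraries of a low dose group (10 mg/kg) also entered the fits behind all p-values, which share 1 estimate of the spread over the 35 libraries. Day of dosing also carries the age of the animal, so the effects of age and of repeated dosing with vehicle cannot be told apart. Replicates carry numbers only, with no statement that they come from different rats, so p-values measure the spread between these libraries, which may be technical. In whole liver, fewer cells of a type and less of a miRNA per cell cannot be told apart either.

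A miRNA is cut from a hairpin precursor whose 5′ and 3′ arms (5p and 3p) can each yield a mature strand. One strand is usually kept in an Argonaute protein, where its seed (bases 2 to 8) pairs with messenger RNAs and represses them, and the other is degraded. Hepatocytes make up most of the liver mass, and miR-122 and the jointly transcribed miR-192 and miR-194 are known for their high levels in them, beside miRNAs of endothelial, stellate and blood cells.

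Mature sequences were taken by name from RefSeq (build GRCr8), which matched 685 of the 763 names in the table, carrying 97.1% of the control counts. The 7 most abundant miRNAs of control liver, which open the description of abundance below, are printed 5′ to 3′ with the seed in capitals.
miR-192-5p: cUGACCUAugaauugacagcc
miR-22-3p: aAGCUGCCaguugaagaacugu
miR-21-5p: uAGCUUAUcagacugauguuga
miR-10a-5p: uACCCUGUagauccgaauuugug
miR-26a-5p: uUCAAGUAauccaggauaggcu
miR-143-3p: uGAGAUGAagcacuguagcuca
miR-122-5p: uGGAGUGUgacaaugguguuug
All 7 seeds differ from each other.

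The miRNAs that passed a test between days include miR-16-5p and miR-15b-5p, whose mature strands carry the seed AGCAGCA, and miR-15a-5p, which is named only. The first pair is shown with 3 strands of the same seed that passed in no comparison, so that the seed relatives can be set side by side.
miR-16-5p: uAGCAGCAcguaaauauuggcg
miR-15b-5p: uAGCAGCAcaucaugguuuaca
miR-195-5p: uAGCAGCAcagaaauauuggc
miR-497-5p: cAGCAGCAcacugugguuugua
miR-322-5p: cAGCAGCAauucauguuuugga
miR-182 had the smallest p between days 7 and 3 and is shown with its cluster neighbours miR-96 and miR-183, whose seeds are similar but not the same.
miR-182: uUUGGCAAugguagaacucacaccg
miR-96-5p: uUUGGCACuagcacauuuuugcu
miR-183-5p: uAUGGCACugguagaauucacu

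Total counts of the 8 libraries ran from 2815680 (day 7 replicate 2) to 4367572 (day 14 replicate 2). Between 406 and 463 miRNAs per library had at least 1 count, 217 of 763 had none in any control, and 151 had none in any of the 35 libraries. Libraries of one day were not alike. Levels are given as CPM, counts scaled to a common library size with edgeR's TMM factors. The first principal component of log2 CPM, over the 328 miRNAs that passed the low-count filter, carried 33.3% of the variance. Day 7 replicates 2 and 3 stood at 7.62 and 6.58 on it, while day 7 replicate 1 was at -0.45. Day 3 replicate 3 lay at the other end, at -6.91, against -1.08 and 0.11 for day 3 replicates 1 and 2, and the day 14 libraries were at -3.64 and -2.25. Day 7 replicates 2 and 3 had 2815680 and 3411908 counts and day 7 replicate 1 had 4178766. Day 14 replicate 1, at -3.64 on the component, had 3177390 counts. The part of depth was not tested. The median SD of log2 CPM within a day was 0.23 on day 3, 0.31 on day 7 and 0.16 on day 14 (n = 3, 3 and 2). Between any 2 controls the squared count differences were at least 44.7 times those of sampling noise (chi-square per degree of freedom). No pair was therefore treated as 1 library counted again. The chi-square covers counting error only and does not show whether the libraries come from different rats. Library preparation and sequencing runs are not given in the labels, and a value within such batches could not be had. Because day 7 replicates 2 and 3 stand apart from replicate 1, each comparison with day 7 is also given without them.

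Day 3 replicate 3 also held a group of miRNAs that the other 7 libraries lacked or nearly lacked. By a rule chosen after the values were seen, 12 strands had at least 10 counts in it and at least 5 times the highest count of any other control, and no strand met that rule in any of the other libraries. All 12 lie on chromosome X in RefSeq, from 9 hairpins that lie in 1 neighbourhood and are known from the testis in mouse. The most abundant were miR-871-3p with 588 counts, miR-743b-3p with 234 and miR-881-3p with 191, against at most 14, 3 and 4 counts in any other library. The remaining 9 strands, of miR-463, miR-741, miR-880, miR-871, miR-743a, miR-743b, miR-471 and miR-883, had 10 to 44 counts in day 3 replicate 3 and at most 3 elsewhere. Summed over the 12, day 3 replicate 3 had 1235 counts, day 3 replicate 2 had 33 and each of the others at most 8. The part of this group in the comparisons with day 3 was not tested, and the counts of calls without day 3 replicate 3 are given with the results they change.

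**Figure D1:**
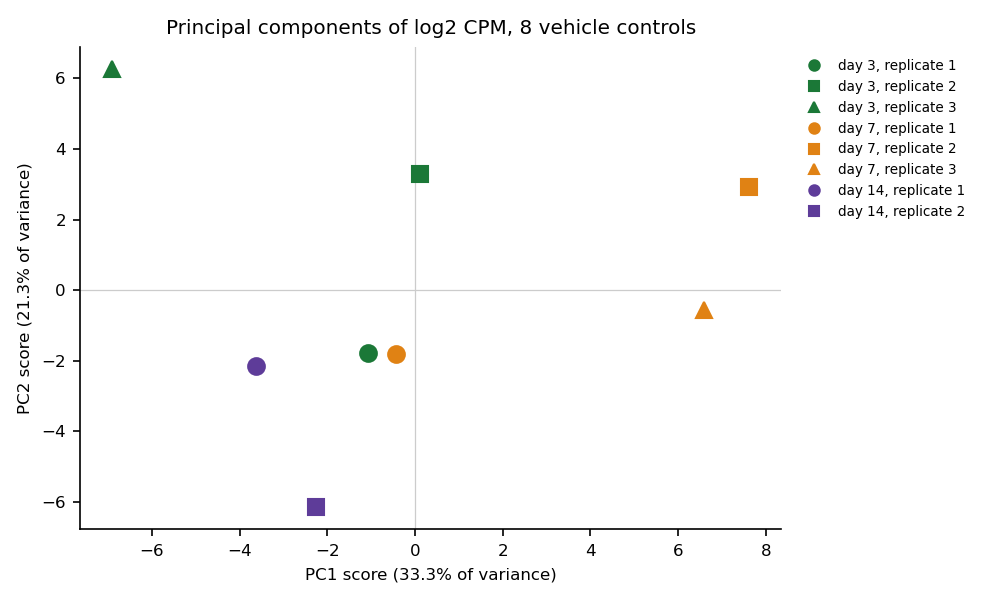
First and second principal component scores of log2 CPM over 328 miRNAs in the 8 vehicle control libraries, 1 point per library, with colour for the day and shape for the replicate number. Day 7 replicates 2 and 3 lie at 7.62 and 6.58 on the first component, apart from day 7 replicate 1 at -0.45, and day 3 replicate 3 lies at -6.91.

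A few miRNAs held most of the counts. miR-192-5p took 19.8% ± 1.46 of a library (mean ± SD, n = 8), from 17.0% to 22.4%. miR-22-3p, a conserved miRNA cut from its own noncoding transcript, took 14.8% ± 1.82, and miR-21-5p, widely expressed and known to be induced by injury and growth, took 7.98% ± 1.43. These led in 7 of 8 libraries, and in day 3 replicate 3 miR-26a-5p, at 5.83%, stood just above miR-21-5p, at 5.77%. The next places belonged to miR-10a-5p, encoded in a Hox gene cluster, at 4.47% ± 0.408, to miR-26a-5p at 4.45% ± 0.865 and to miR-143-3p, a smooth muscle and stellate cell miRNA, at 4.17% ± 0.617. The liver-specific miR-122-5p was seventh, at 3.998% ± 0.333, ahead of miR-378a-3p (3.91% ± 0.310), from an intron of Ppargc1b, miR-27b-3p (3.77% ± 0.372) and miR-148a-3p (3.54% ± 0.717). Neighbours from the fourth to the tenth place differed by less than their spread between libraries. Since mature miRNAs are nearly of one length (21 to 23 bases for the 20 most abundant), shares of counts were compared without a length correction, and they also carry the different efficiency with which each sequence enters a library.

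The day 7 libraries differed among themselves in several of these shares. miR-22-3p stood at 15.1%, 14.3% and 16.6% on day 3, at 15.96%, 11.8% and 12.5% on day 7 and at 15.6% and 16.5% on day 14. Day 7 replicates 2 and 3 were thus the lowest of the 8 and replicate 1 was among the highest. miR-21-5p stood at 8.47%, 7.74% and 5.77% on day 3, at 7.75%, 8.53% and 10.8% on day 7 and at 7.17% and 7.62% on day 14, with its lowest value in day 3 replicate 3. miR-148a-3p, an abundant hepatocyte miRNA, made up 2.41% and 2.49% in day 7 replicates 2 and 3 and between 3.62% and 4.40% in the other 6 libraries. miR-122-5p spanned 3.66% to 4.25% on day 3, 4.08% to 4.41% on day 7 and 3.58% to 3.60% on day 14. Its day 14 libraries were the lowest of the 8.

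**Figure D2:**
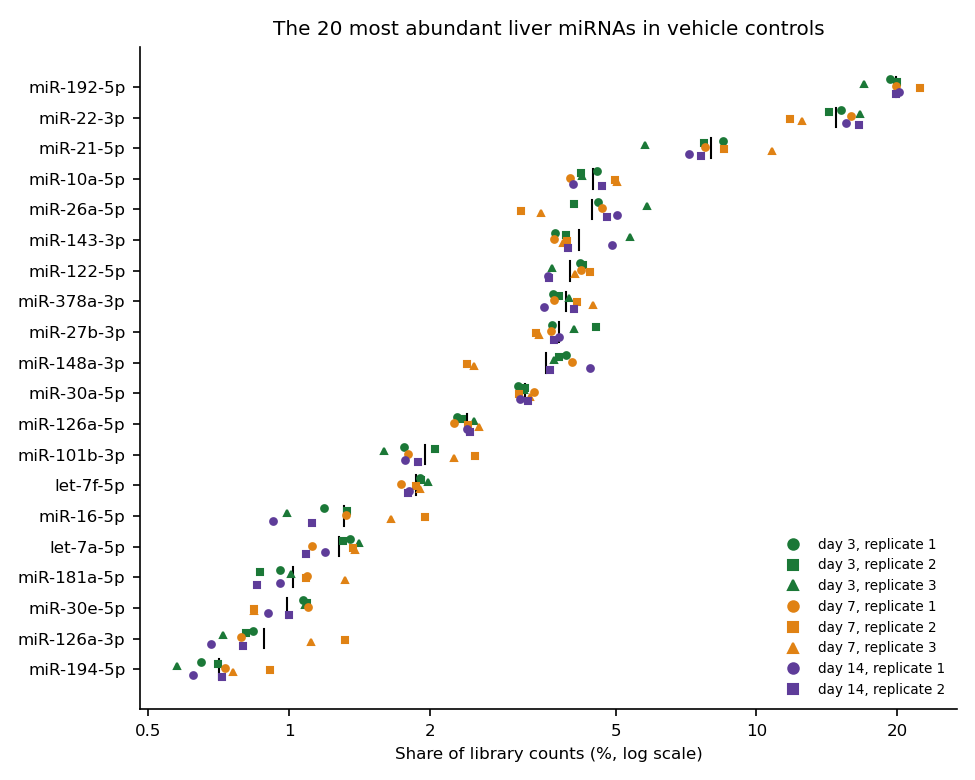
Percent of library counts (log axis) of the 20 most abundant miRNAs in the 8 vehicle control libraries, 1 point per library, with colour for the day, shape for the replicate and a black tick for the mean of 8. miR-192-5p (19.8%) and miR-22-3p (14.8%) lead, and miR-148a-3p, miR-26a-5p and miR-16-5p show day 7 replicates 2 and 3 apart from the others.

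Summed over miRNAs, the 10 most abundant held 70.9% ± 1.13 of the counts, the top 20 held 86.5% ± 0.679 and the top 100 held 99.1% ± 0.0637. The sum of the first 10 ranged only from 69.1% to 72.5% although single members moved more. Of the 763 miRNAs, 241 averaged at least 10 CPM, 54 at least 1000 CPM and 16 at least 10000 CPM. Grouped by seed, the 10 leading seeds among 581 held 74.1% ± 0.713. The let-7 seed GAGGUAG, carried by 9 mature strands here and known from control of developmental timing, held 5.23% ± 0.387, of which let-7f-5p supplied 35.7%. The seed of miR-26a and miR-26b held 5.07% ± 1.003, and that of 4 matched strands, miR-30a-5p, miR-30e-5p, miR-30c-5p and miR-384-5p, 4.65% ± 0.192. miR-30d-5p (0.691%) and miR-30b-5p (0.338%) had no matched sequence and are not in that sum, so the order of these 3 families by seed is not given. The sum for miR-26 had the largest SD of the 3 and ran from 3.54% in day 7 replicate 2 to 6.604% in day 3 replicate 3. let-7a-1-3p and let-7c-2-3p have one and the same mature sequence and their counts differed by at most 1 in any control, so they cannot be told apart.

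Strands that begin with U held 52.4% ± 0.860 of the matched counts while making up 36.2% of the matched names. Strands that begin with G held 0.154% ± 0.0175 of the counts and 12.6% of the names. Human Argonaute proteins are known to bind a first U or A more tightly than a first G or C. Strands beginning with A held 22.7% ± 1.53 and those with C 24.8% ± 1.35 of the counts. miR-192-5p begins with C and carried most of that last share.

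Markers of the labelled tissue were at high levels, and those of muscle and nervous tissue were at 0 or at low levels. All 16 listed hepatocyte strands, among them both arms of miR-122, miR-192, miR-194 and miR-802, averaged at least 10 CPM, and their sum was 515021 ± 27915 CPM. That list names strands abundant in hepatocytes, which need not be specific to them. Its leading members were miR-192-5p (190310 CPM), miR-22-3p (141380 CPM), miR-122-5p (38269 CPM) and miR-378a-3p (37496 CPM). The endothelial miR-126a strands summed to 31465 ± 3590 CPM and the 8 stellate and smooth muscle strands to 41648 ± 5158 CPM, most of it miR-143-3p. White blood cell strands summed to between 1556 and 3176 CPM, red blood cell strands to between 1521 and 4148 CPM and the epithelial miR-200 strands to between 950 and 1978 CPM. The pancreas list reached 263 ± 44.3 CPM, nearly all miR-375-3p. The nervous tissue list reached 8.06 ± 2.87 CPM. Of the 12 muscle strands, 7 were at 0 in all 8 controls, miR-1, miR-206 and miR-208 among them. The sum was 24.5 ± 9.17 CPM, led by miR-499-5p and miR-133a-3p. The muscle strand miR-133a-3p was uneven, with 66 counts in day 3 replicate 3, 35 in day 14 replicate 1 and 3 to 14 in the others.

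Among miRNAs of at least 100 CPM, let-7f-5p varied least over the 8 libraries, with an SD of log2 CPM of 0.063 around 17835 CPM. It was followed by miR-28-5p (0.078), miR-30a-5p (0.079), miR-151-5p (0.081), miR-872-5p (0.083) and miR-30b-5p (0.087). The median over 328 miRNAs was 0.33. The largest SD was that of miR-10b-5p, encoded like miR-10a in a Hox cluster. It had 222, 198 and 687 CPM on day 3, 240, 397 and 359 CPM on day 7 and 541 and 128 CPM on day 14. Both the day 3 and the day 14 libraries thus spanned more than the means of the days did. miR-34c-5p, of the p53-induced miR-34 family, had an SD of 0.60 and ran from 61.9 CPM in day 14 replicate 2 to 191 CPM in day 7 replicate 2. The others of the leading 6 were miR-148a-5p (0.56), miR-142-5p of white blood cells (0.51) and miR-486 and miR-451-5p of red blood cells (0.55 and 0.52). miR-486 ran from 1074 CPM in day 7 replicate 2 to 3169 CPM in day 3 replicate 3, and miR-451-5p was highest, at 667 CPM, in day 3 replicate 2.

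Arm use was compared for the 70 of 282 hairpins whose 2 arms each averaged at least 20 counts over the controls. A ratio of both arms in a library needs no scaling between libraries. The 5p arm held over 90% of the hairpin's counts in 26 hairpins, the 3p arm in 15, and 29 lay between. Overall the 5p arm was the more abundant in 44 hairpins. The most 5p-sided were miR-192 (99.96% ± 0.00473 from the 5p arm), miR-10a, let-7g, let-7i, miR-21 and miR-194 (99.5% ± 0.183). At the other end stood miR-22, with a 5p share of 0.00841% ± 0.00255 and a mean of 47.5 counts of miR-22-5p per library, followed by miR-143, miR-27b, miR-101a, miR-29a and miR-378a (0.608% ± 0.116). The difference between these extremes was far larger than the spread between libraries.

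The hairpins nearest to an even split were miR-423 (55.1% ± 6.24), miR-374 (58.2% ± 6.89), miR-28 (59.8% ± 7.12), miR-151 (60.5% ± 2.68), miR-802 (61.0% ± 5.17) and miR-136 (37.4% ± 6.39). In 4 hairpins, miR-28, miR-374, miR-423 and miR-455, the leading arm was not the same in all libraries, the 5p arm leading in 7 of 8 for each. miR-455 had the largest SD of the log2 ratio, 0.83, because day 14 replicate 1 had a 5p share of 41.5% and the other 7 libraries 60.4% to 81.4%. The next largest SDs were those of miR-98 (0.67), miR-145 (0.57), miR-194 (0.57), miR-872 (0.55) and miR-221 (0.52). For miR-145, day 3 replicate 3 had a 5p share of 45.7%, and the other 7 libraries had 17.7% to 30.8%.

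**Figure D3:**
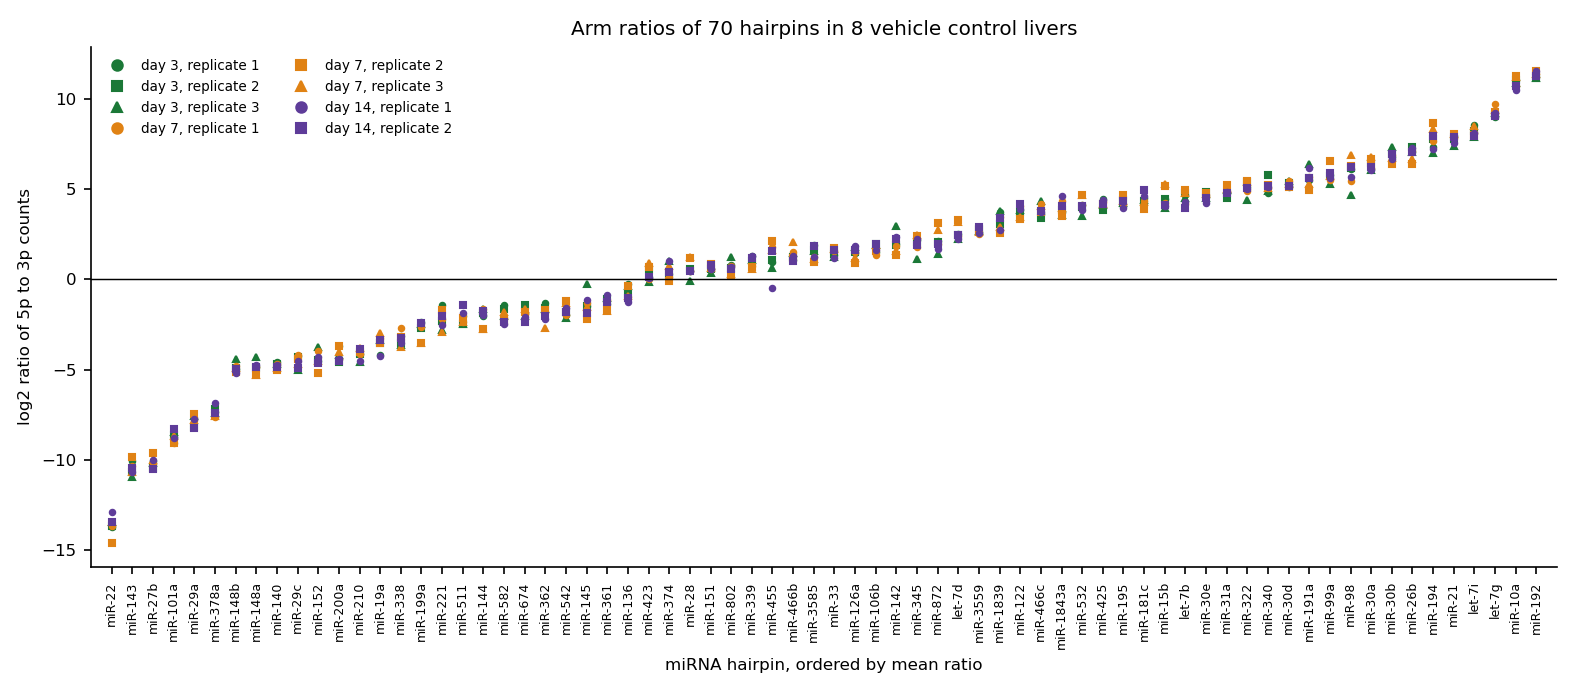
Log2 ratio of 5p to 3p counts (with 0.5 added to each) of 70 hairpins, ordered by their mean, in the 8 vehicle control libraries, 1 point per library with colour for the day and shape for the replicate. The hairpins run from miR-22 (mean -13.59) to miR-192 (mean 11.31), and the points of most hairpins lie close together compared with that range.

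For 57 of the 70 hairpins both sequences were at hand. The more abundant arm began with U in 33 of them and the less abundant arm in 14. Among the 35 with over 90% in one arm the numbers were 25 and 7, and among the 22 between they were 8 and 7. Both arms of miR-22, the most one-sided towards 3p, begin with A. The scarce arm is shown here, beside miR-22-3p above.
miR-22-5p: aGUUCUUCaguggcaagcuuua

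Day 7 was compared with day 3 in edgeR with its quasi-likelihood test. The p-values were adjusted after Benjamini and Hochberg over all 328 miRNAs, with a threshold of 0.05. miR-182 and miR-145-5p were lower on day 7, and miR-15a-5p, miR-16-5p and miR-181a-2-3p were higher. These 5 were 1.52% of the miRNAs tested, with 3 higher (0.915%) and 2 lower (0.61%). Values are in CPM and folds in log2 with their SE.

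miR-182 is transcribed with miR-96 and miR-183, a cluster reported to be activated by the sterol regulator SREBP-2 in mouse. It had 644, 697 and 623 CPM in the day 7 libraries, against 1312, 1641 and 1084 CPM in the day 3 libraries. The groups did not overlap, and all 3 day 7 libraries were close together. The log2 fold change was -1.04 ± 0.21 (adjusted p = 0.00944). miR-183-5p had 47.6, 55.4 and 37.4 CPM on day 7, against 84.9, 119 and 91.9 CPM on day 3, a log2 fold change of -1.08 ± 0.43 (adjusted p = 0.14). miR-96-5p stood at 18.3, 19.8 and 6.85 CPM on day 7, against 34.9, 43.3 and 21.9 CPM on day 3, at -1.16 ± 0.34 (adjusted p = 0.058). Neither cluster neighbour overlapped between the days, and neither passed the threshold. Non-overlap alone was common, with 15 miRNAs lower and 30 higher in all day 7 than in all day 3 libraries. Of the 5 sterol-linked strands tested, 1 fell, and 3 of the 5 are the strands of this cluster. The list's median of -1.04 is therefore the value of miR-182 itself and adds nothing to its call. The median of all 328 was -0.0064. The other pair, miR-33-5p and miR-33-3p, which are encoded in the gene of SREBP-2, stood at 0.44 ± 0.17 and 0.08 ± 0.20.

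miR-16-5p and miR-15a-5p are made from a joint transcript, and the family is known to restrain the cell cycle. miR-16-5p had 12668, 19836 and 16127 CPM on day 7, against 11173, 12183 and 8885 CPM on day 3. Day 7 replicate 1 was only just above the highest day 3 library. Its log2 fold change was 0.59 ± 0.15 (adjusted p = 0.0471). miR-15a-5p had 1001, 1503 and 1271 CPM on day 7, against 866, 885 and 717 CPM on day 3, at 0.61 ± 0.15 (adjusted p = 0.0295). Their seed relatives printed above did not pass: miR-497-5p stood at 0.51 ± 0.16, miR-195-5p at 0.46 ± 0.17, miR-15b-5p at 0.27 ± 0.18 and miR-322-5p at -0.04 ± 0.14. Of the 11 miR-15/16 family strands tested, 2 rose, 7 had positive values, and the median was 0.32.

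miR-181a-2-3p, the scarcer strand of a miR-181a hairpin, had 30.0, 54.3 and 53.1 CPM on day 7, against 29.4, 27.3 and 26.0 CPM on day 3. Day 7 replicate 1 again lay next to the day 3 libraries. The log2 fold change was 0.73 ± 0.19 (adjusted p = 0.0491). miR-145-5p, of smooth muscle and stellate cells, had 78.0, 38.5 and 44.0 CPM on day 7, against 83.5, 75.1 and 162 CPM on day 3, at -0.99 ± 0.24 (adjusted p = 0.0295). These groups overlapped, since day 7 replicate 1 exceeded day 3 replicate 2. It was the one of the 5 that overlapped. The other 6 tested strands of the stellate and smooth muscle list did not pass, and the list's median was -0.08. The list's summed level was 36657 to 42215 CPM on day 7 and 36620 to 49985 CPM on day 3, and its part in the result was not tested.

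**Figure D4:**
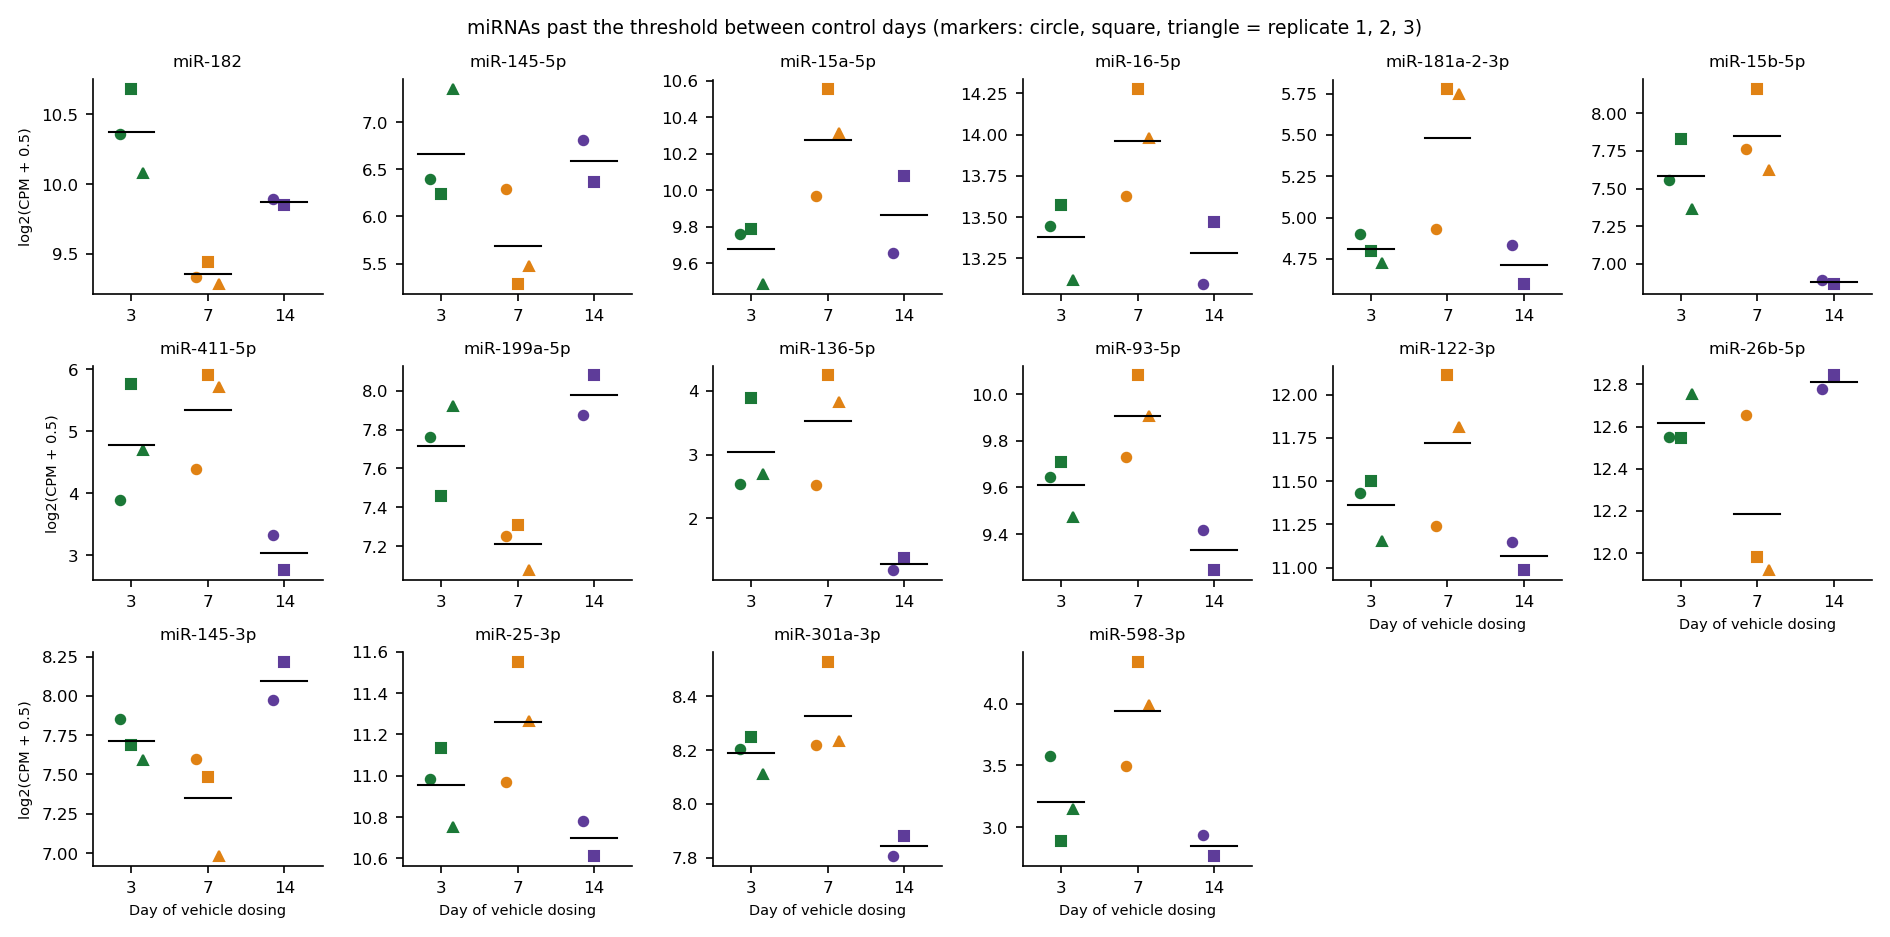
Log2(CPM + 0.5) in each vehicle control library for the 16 miRNAs that passed the threshold between days 7 and 3 or between days 14 and 7, by day of dosing, with circle, square and triangle for replicates 1, 2 and 3 and a bar for the mean of the day. In miR-182 all 3 day 7 libraries sit below all others, while in miR-16-5p, miR-181a-2-3p, miR-122-3p and miR-26b-5p day 7 replicate 1 sits nearer to the other days than replicates 2 and 3 do.

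The count of calls depended on single libraries. Without day 7 replicate 1, 62 miRNAs passed. Without day 7 replicate 2, or without replicate 3, only miR-182 passed. Leaving out day 3 replicate 1, 2 or 3 left 3, 4 or 2, and leaving out day 14 replicate 2 left 2. Without both day 7 replicates 2 and 3, 1 day 7 library is left, so no count of calls is given. In that fit the lone day 7 library is assumed to vary like the other groups. There miR-182 stood at -1.05 ± 0.32, miR-145-5p at -0.43, miR-15a-5p at 0.30, miR-16-5p at 0.25 and miR-181a-2-3p at 0.14. The miR-182 difference was about the same size without those libraries, and the other 4 were closer to 0. Over its 16 alternatives the adjusted p of miR-182 ran from 0.000417 to 0.95, the latter with that lone library, and it passed in the other 15. With the 8 controls alone, 2 passed, miR-182 among them (adjusted p = 0.0267). DESeq2 called 15, and 71 had an unadjusted p under 0.05 by edgeR. The summed white blood cell strands were 1556 to 2216 CPM on day 7 and 1775 to 3176 CPM on day 3, the red blood cell strands 1521 to 3210 and 2539 to 4148 CPM, and their part was not tested.

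Between days 14 and 7, 13 miRNAs passed (3.96% of 328), 3 higher on day 14 (0.915%) and 10 lower (3.05%). In none of the 13 did the groups overlap, but 46 of the 328 miRNAs were higher and 61 lower in both day 14 than in all 3 day 7 libraries, so non-overlap was common. This comparison shares the day 7 libraries with the one above. The largest falls were those of miR-411-5p and miR-136-5p of the imprinted Dlk1-Dio3 region, which encodes one of the largest miRNA clusters of mammals and is most active before birth. The 3 miRNAs that rose were miR-199a-5p and miR-145-3p, both known from stellate and smooth muscle cells, and miR-26b-5p.

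miR-411-5p had 9.52 and 6.28 CPM in the day 14 libraries, against 20.6, 59.3 and 52.3 CPM in the day 7 libraries, a log2 fold change of -2.48 ± 0.59 (adjusted p = 0.0246). The day 14 libraries were also under every day 3 library, which had 14.3, 53.7 and 25.5 CPM. miR-136-5p, which averaged under 10 CPM and is named because it passed, had 1.79 and 2.09 CPM on day 14, against 5.26, 18.3 and 13.7 CPM on day 7, at -2.62 ± 0.66 (adjusted p = 0.0246). Of 78 strands of the region in the table, 33 were at 0 in all controls and 8 were tested. All 8 had negative values, 2 fell, and the median was -1.80, against -0.06 for all 328. The 8 strands come from the same region and are read in the same day 14 libraries, so their like signs are no test of a shift. The share of negative values among all 328 was not taken. The low-count filter did not require counts on day 14, and miR-136-5p was tested with 6 and 9 counts there. The part of the filter in these signs was not tested. miR-376b-3p was at 0 in both day 14 libraries. With it set to the bound that 3 counts over those libraries give, the median was -1.80 as well. The region's summed level was 35.8 and 44.1 CPM in the day 14 libraries and 72.1 to 162 CPM on day 7.

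miR-15b-5p had 118 and 116 CPM on day 14, against 216, 286 and 197 CPM on day 7. Its log2 fold change of -0.99 ± 0.21 had the smallest adjusted p of this comparison, 0.0176. miR-16-5p had 8743 and 11364 CPM on day 14, against the day 7 values given above, at -0.69 ± 0.18 (adjusted p = 0.0246). Both seed-sharing strands were thus lower on day 14, while miR-15a-5p stood at -0.42 ± 0.17 (adjusted p = 0.12). In the miR-15/16 list 2 of 11 fell and the median was -0.13. miR-25-3p and miR-93-5p, made from one intron of the replication gene Mcm7 in mammals, both fell. miR-106b-5p, which shares the seed of miR-93-5p, was tested and did not pass. miR-25-3p had 1761 and 1562 CPM on day 14, against 2004, 3004 and 2460 CPM on day 7, at -0.58 ± 0.17 (adjusted p = 0.0416). miR-93-5p had 683 and 606 CPM on day 14, against 850, 1082 and 959 CPM on day 7, at -0.58 ± 0.15 (adjusted p = 0.0246). In their miR-17/92 list, whose members are known to promote proliferation, 2 of 17 fell, 14 had negative values and the median was -0.44.

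The remaining falls were smaller in size or at low level. miR-122-3p, the scarcer strand of the miR-122 hairpin, had 2270 and 2027 CPM on day 14, against 2423, 4420 and 3591 CPM on day 7, at -0.69 ± 0.18 (adjusted p = 0.0246). miR-122-5p stood at -0.24 ± 0.16 and did not pass. In the hepatocyte list, 1 of 16 fell and the median was -0.01. miR-181a-2-3p had 28.0 and 23.7 CPM on day 14, at -0.82 ± 0.22 (adjusted p = 0.0319). miR-301a-3p, of the miR-130 seed family, fell by 0.49 and miR-598-3p by 1.17 on the log2 scale.

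Among those that rose, miR-199a-5p had 234 and 270 CPM on day 14, against 152, 158 and 135 CPM on day 7, at 0.77 ± 0.19 (adjusted p = 0.0246). All 3 day 7 libraries were close together. miR-145-3p had 251 and 297 CPM on day 14, against 193, 178 and 126 CPM on day 7, at 0.73 ± 0.20 (adjusted p = 0.0409). miR-145-5p from the same hairpin stood at 0.84 ± 0.26 (adjusted p = 0.062). In the stellate and smooth muscle list, 2 of 7 rose, 4 had positive and 3 negative values (lowest -0.186), and the median was 0.20. The list's summed level was 42288 and 48327 CPM on day 14 and 36657 to 42215 CPM on day 7. The abundant miR-143-3p of the same list stood at 0.20 ± 0.12. miR-26b-5p had 7015 and 7345 CPM on day 14, against 6442, 4049 and 3872 CPM on day 7, at 0.58 ± 0.15 (adjusted p = 0.0246).

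The 13 calls rested on few libraries and on the spread estimated with the treated groups. With the 8 controls alone, none passed by edgeR. Without day 7 replicate 1, 64 passed, and without day 3 replicate 2, 24 passed. None passed by edgeR without day 7 replicate 2 or without day 14 replicate 1, and 2 passed without day 7 replicate 3 or without day 14 replicate 2. DESeq2 called 36, and 84 had an unadjusted p under 0.05 by edgeR. Without both day 7 replicates 2 and 3, 1 day 7 library is left, so no count of calls is given. miR-15b-5p then stood at -0.87 ± 0.25 and miR-199a-5p at 0.74 ± 0.28, about their sizes with all libraries. Over its 16 alternatives the adjusted p of miR-15b-5p ran from 0.000973 to 0.282. miR-411-5p was at -1.38, miR-16-5p at -0.32, miR-122-3p at -0.16 and miR-26b-5p at 0.17.

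No difference between days 14 and 3 was detectable at these numbers of libraries. By edgeR 0 of 328 miRNAs passed (0%), 29 had an unadjusted p under 0.05, and DESeq2 called 0. The smallest p belonged to miR-335, encoded in the imprinted gene Mest. It had 286 and 233 CPM on day 14, against 430, 479 and 396 CPM on day 3, at -0.75 ± 0.21 (adjusted p = 0.20), and the groups did not overlap, as for 55 miRNAs that were lower and 35 that were higher in both day 14 libraries. miR-15b-5p stood at -0.72 ± 0.21 and miR-411-5p at -1.995 ± 0.58, with the same adjusted p. Without day 3 replicate 1, 1 miRNA passed. The Dlk1-Dio3 strands again all had negative values, with a median of -1.59, or -1.53 with miR-376b-3p at its bound, against -0.04 for all 328. None of the 8 passed, and the limits given for these strands on day 14 against day 7 hold here too. Their summed level was 35.8 and 44.1 CPM on day 14 and 61.4 to 166 CPM on day 3. In the miR-29 list, known for repressing collagens, all 5 tested strands had positive values on day 14 against day 3 (median 0.40) and against day 7 (median 0.48), and none passed. miR-29a-3p had 3038 and 3633 CPM on day 14, against 2390, 1922 and 2742 CPM on day 3, at 0.50 ± 0.22. All 4 red blood cell strands had negative values on day 14 against day 3, with a median of -0.71 and none past the threshold. All 7 tested strands of the epithelial miR-200 list also had negative values (median -0.47), and none passed. The let-7 list stood at a median of -0.15, with 8 of 9 negative and none past the threshold. Here and above, such counts of signs were not set against the share of all 328 miRNAs with that sign. Some members of a list share a hairpin or a transcript, and all are read in the same libraries. Like signs in a list are therefore no test of a shift of that list. No strand of the let-7, miR-30, miR-23/24/27, miR-34, miR-210, inflammation, white blood cell, pancreas, muscle or nervous tissue lists passed in any of the 3 comparisons of 2 days.

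A joint test of any difference among the 3 days called 14 miRNAs (4.27%). With the 8 controls alone it called 0 by edgeR, and without the low-count filter 1. They were 12 of the 16 named above, together with miR-126a-3p and miR-871-3p. miR-126a-3p, the endothelial strand encoded in Egfl7, had 7889, 7415 and 6475 CPM on day 3, 7552, 13342 and 10863 CPM on day 7 and 6427 and 8101 CPM on day 14. Day 7 replicates 2 and 3 alone were high. miR-871-3p had 140 CPM in day 3 replicate 3 and at most 3.11 CPM in the other 7 libraries, so its call came from 1 library, the one that held the group of X-linked strands described above. The joint test called 67 without day 7 replicate 1, 0 without day 7 replicate 2 or replicate 3, 1 without day 3 replicate 3, 8 without day 3 replicate 2, and 5 and 4 without day 14 replicates 1 and 2. Its count without both day 7 replicates 2 and 3 is not given, since 1 day 7 library is then left.

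The difference between days in the controls was also tested against the mean difference between the same days in the middle and high dose groups, which share no library with the controls. The low dose was left out because its day 7 libraries were known to cluster apart from those of its other days. The control libraries are those of the comparisons above, so these tests are not independent of them. For day 7 minus day 3, 1 miRNA differed, miR-182 (0.305% of 328). In the controls it averaged 655 ± 37.7 CPM on day 7 and 1346 ± 280 CPM on day 3 (SD, n = 3 each). The middle dose had 1675 ± 272 CPM on day 7 and 1229 ± 378 CPM on day 3, and the high dose 1473 ± 294 CPM on day 7 and 1417 ± 119 CPM on day 3. All 3 day 7 controls lay under all 6 middle and high dose libraries of that day. The difference was -1.29 ± 0.26 (adjusted p = 0.00714 by edgeR, also called by DESeq2). Without day 7 replicate 1, 39 miRNAs differed, and 4 did without day 3 replicate 2. Without both day 7 replicates 2 and 3 miR-182 stood at -1.30 ± 0.35, with 1 day 7 control left. Its adjusted p over 15 alternatives ran from 0.000324 to 0.314, the latter in that fit. miR-16-5p, the second by p, had a difference of 0.71 ± 0.19 (adjusted p = 0.089). It averaged 16210 ± 3585 CPM on day 7 and 10747 ± 1690 CPM on day 3 in the controls. The middle dose had 5755 ± 531 CPM on day 7 and 6321 ± 505 CPM on day 3, and the high dose 5788 ± 117 CPM on day 7 and 6201 ± 765 CPM on day 3. The controls were higher than both doses on either day, with no overlap. For neither miR-182 nor miR-16-5p was this separation set against the share of the 328 miRNAs that separate likewise.

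For day 14 minus day 3, 0 miRNAs differed (0%), with 14 at an unadjusted p under 0.05 by edgeR and 0 by DESeq2. miR-182 had the smallest p, at -1.13 ± 0.28 (adjusted p = 0.12), with 937 ± 21.9 CPM in day 14 controls (n = 2), against 2019 ± 502.5 CPM in the middle dose group and 2012 ± 418 CPM in the high dose group (n = 3 each). For day 14 minus day 7, 0 differed (0%) by edgeR, with 48 at an unadjusted p under 0.05, and DESeq2 called 3. The smallest p belonged to miR-122-3p (-0.79 ± 0.21), miR-598-3p (-1.47 ± 0.40) and miR-16-5p (-0.73 ± 0.21), each with an adjusted p of 0.14. Without day 7 replicate 1, 30 differed, and without day 14 replicate 2, 3 did.

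Arm ratios were compared between days with limma over the 70 hairpins. On day 7 against day 3, 6 hairpins passed (8.57%), 3 with a higher 5p share (4.29%), miR-28, miR-194 and miR-872, and 3 with a lower one (4.29%), miR-142, miR-199a and miR-802. Both arms of 5 of them are printed with their seeds in capitals, since the ratio sets these strands against each other.
miR-28-5p: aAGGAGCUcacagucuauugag
miR-28-3p: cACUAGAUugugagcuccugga
miR-194-5p: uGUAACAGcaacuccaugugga
miR-194-3p: cCAGUGGGgcugcuguuaucu
miR-872-5p: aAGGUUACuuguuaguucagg
miR-872-3p: uGAACUAUugcaguagccuccu
miR-142-5p: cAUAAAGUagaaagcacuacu
miR-142-3p: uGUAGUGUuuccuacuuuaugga
miR-199a-5p: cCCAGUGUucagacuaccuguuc
miR-199a-3p: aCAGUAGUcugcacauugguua

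miR-28, from an intron of Lpp, had a 5p share of 57.6%, 69.4% and 70.3% on day 7, against 57.5%, 59.9% and 48.2% on day 3. Its log2 ratio differed by 0.65 ± 0.18 (adjusted p = 0.0378 by limma). The groups overlapped through day 7 replicate 1. miR-28-5p is among the steadiest strands given above, and miR-28-3p had 595, 361 and 328 CPM on day 7, against 561, 486 and 779 CPM on day 3. miR-872 had a 5p share of 79.2%, 89.7% and 87.0% on day 7, against 81.6%, 80.7% and 72.9% on day 3, a difference of 0.72 ± 0.21 (adjusted p = 0.0378), and these groups overlapped. Here too the 5p strand was steady and the 3p strand differed between libraries, with 139, 67.6 and 85.4 CPM on day 7 and 115, 123 and 188 CPM on day 3. For miR-194 the difference was 0.85 ± 0.24 (adjusted p = 0.0378), with miR-194-5p at 6970, 9222 and 7379 CPM on day 7, against 6082, 6436 and 5160 CPM on day 3. miR-194-3p was at 34.3, 22.7 and 23.4 CPM on day 7, against 38.6, 29.1 and 40.7 CPM on day 3. The log2 ratios of miR-194 overlapped between the days, with 7.66 in day 7 replicate 1 and 7.78 in day 3 replicate 2.

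miR-199a had a 5p share of 13.7%, 8.03% and 8.09% on day 7, against 16.4%, 13.2% and 15.5% on day 3, a difference of -0.72 ± 0.22 (adjusted p = 0.041 by limma). Day 7 replicates 2 and 3 were the 2 lowest of the 8 libraries, and the day 14 libraries, both at 15.6%, were among the highest. Days 7 and 3 overlapped through day 7 replicate 1. miR-142, of white blood cells, had a 5p share of 78.4%, 71.9% and 74.5% on day 7, against 79.7%, 78.7% and 88.4% on day 3, at -0.68 ± 0.21 (adjusted p = 0.0408). The groups did not overlap, by a narrow margin. miR-802, a hepatocyte miRNA in mouse, had a 5p share of 62.8%, 53.8% and 55.4% on day 7, against 63.6%, 60.5% and 70.6% on day 3, at -0.47 ± 0.15 (adjusted p = 0.0446). Its groups overlapped.

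**Figure D5:**
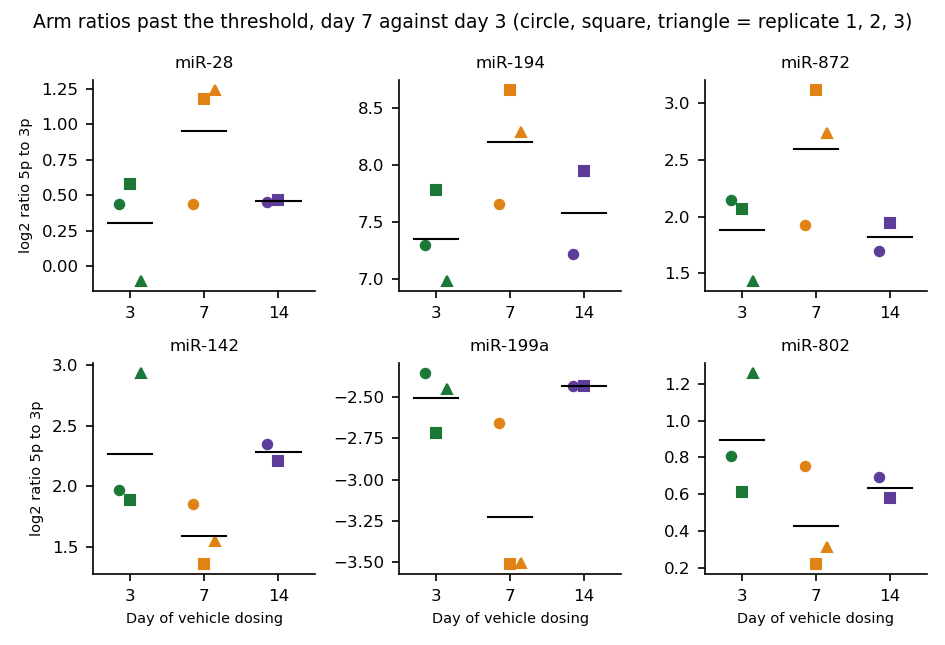
Log2 ratio of 5p to 3p counts in each vehicle control library for the 6 hairpins that passed the threshold between days 7 and 3, by day of dosing, with circle, square and triangle for replicates 1, 2 and 3 and a bar for the mean of the day. In miR-28, miR-872 and miR-199a, day 7 replicate 1 lies with the other days and replicates 2 and 3 lie apart.

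No hairpin passed when the 8 controls were fitted alone, so the 6 calls depend on the spread estimated with the treated groups. None passed without day 7 replicate 2, without day 7 replicate 3, or without day 3 replicate 3. Without day 7 replicate 1, 17 passed, and 3 passed without day 3 replicate 1. Without both day 7 replicates 2 and 3 the log2 ratio differed by 0.31 for miR-194, 0.14 for miR-28, 0.05 for miR-872, -0.15 for miR-199a, -0.41 for miR-142 and -0.14 for miR-802. Day 14 against day 3 had 0 hairpins past the threshold (0%) and 3 at an unadjusted p under 0.05 by limma. Day 14 against day 7 also had 0 (0%), with 21 at an unadjusted p under 0.05. The smallest p there belonged to miR-455 (-1.32 ± 0.39), miR-872 (-0.78 ± 0.23) and miR-199a (0.79 ± 0.25), all with an adjusted p of 0.058, and 19 passed without day 7 replicate 1, 5 without day 3 replicate 3 and 2 without day 14 replicate 2. The joint test over the 3 days called 0 (0%), with 20 at an unadjusted p under 0.05 by limma. It called 20 without day 7 replicate 1, 7 and 2 without day 3 replicates 2 and 1, and 4 without day 14 replicate 2.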

How the data were processed

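The deposited values are whole-number counts of reads for each mature miRNA, which the authors made from small RNA reads of rat liver. Per the labels, the kits were RNeasy Plus Universal Mini for the RNA and TruSeq Small RNA for the libraries. The submitters' processing notes name the build rn6. For the aligner, counter and annotation, details were not given in the sources used here. Reads shared by near-identical miRNAs may be split in an unknown way. The table has 37 count columns, and 2 repeat runs were added to their libraries, giving 35.

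Counts were fitted in edgeR 4.0.16 (R 4.3.3) with TMM scaling, robust quasi-likelihood and 1 mean for each of 12 dose and day groups. filterByExpr (minimum count 10, minimum total 15) left 328 miRNAs, with Benjamini-Hochberg adjustment over them. The SE is the log2 fold change divided by the root of F. Arm ratios, log2((5p + 0.5)/(3p + 0.5)), were fitted in limma 3.58.1 (trend, robust) over 70 hairpins. Figures were drawn in matplotlib 3.10.9. Named miRNAs were the 20 most abundant, up to 10 per direction past the threshold with a mean of at least 10 CPM (the 3 smallest p where none passed), the 6 most and least variable, the 6 extremes of arm use, and the leading members of each list. The members and lists were chosen with earlier results of these data known.

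The edgeR fit was tested on simulated data. For days 7 and 3 it recovered 54% of 50 miRNAs changed 1.5 times and 84% of 50 changed 2 times, with 7 false calls among 128 unchanged, on 328 miRNAs. For days 14 and 7 it recovered 42% and 74% (4 false calls), and for days 14 and 3 30% and 80% (1 false call). All but 128 of the 328 miRNAs were changed in each simulation, a far larger share than was called here. The simulated libraries also did not shift together, so these rates may not hold for the real comparisons. The alternatives were other scalings and filters, DESeq2 1.42.0, the 8 controls alone, a replicate block, other arm settings and leaving out libraries.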

Additional observations from a re-analysis of the deposited data

Results flagged for a closer look

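In 4 of 115 named items, 1 control library lay far from the other 7 by Dixon's test, where chance marks about 5% of groups. miR-150-5p, a lymphocyte miRNA, had 886.7 CPM in day 3 replicate 3 and 427.7 to 581.5 CPM in the others. miR-151-5p had 2368 CPM in day 7 replicate 3 and 2629 to 2850 CPM in the others. miR-871-3p had 140 CPM in day 3 replicate 3 and 0 to 3.109 CPM in the others, and 11 further strands of X-linked hairpins were high in that library alone. The log2 ratio of 5p to 3p of the miR-22 hairpin was -14.58 in day 7 replicate 2 and -13.69 to -12.88 in the others.

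The difference between days 7 and 3 was not the same in controls as in the middle and high dose groups for miR-182. The test of that difference gave -1.291 on the log2 scale (adjusted p = 0.00714 by edgeR).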

How the results depend on the processing

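The counts of calls depended on the fit. For day 7 minus day 3 (5 calls), DESeq2 size factors gave 3, testing without a filter 1, requiring 10 CPM in 2 controls 3, DESeq2 15, the 8 controls alone 2 and leaving out 1 library 1 to 62. For day 14 minus day 7 (13 calls) the values were 8, 4, 25, 36, 0 and 0 to 64. For any day (14 calls), no filter gave 1, DESeq2 30, the 8 controls alone 0 and leaving out 1 library 0 to 67. For day 14 minus day 3, leaving out 1 library gave 0 to 1. For control minus middle and high dose, leaving out 1 library gave 1 to 39 for day 7 minus day 3 and 0 to 30 for day 14 minus day 7, where DESeq2 called 3. Arm ratios for day 7 minus day 3 (6 calls) gave 0 with the 8 controls alone, 11 with at least 100 counts per arm and 0 to 17 without 1 library. For day 14 minus day 7 and for any day these ratios gave 6 and 6 with at least 100 counts, and 0 to 19 and 0 to 20 without 1 library. Leaving out day 7 replicates 2 and 3, a choice made after seeing the data, left 1 day 7 library, so its counts of calls are not given. The causes were not tested.

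Deviations from the day means correlated at -0.169 to 0.116 for same-numbered controls and at -0.212 to 0.188 for differently numbered ones. Deviations within a day sum to 0, and those of the 2 day 14 libraries mirror each other. These values therefore cannot decide whether the replicate numbers pair the samples. With the replicate block, day 14 minus day 7 had 22 calls, day 7 minus day 3 had 7 and any day had 13. Control minus middle and high dose had 2 for day 7 minus day 3 and 1 for day 14 minus day 3. Arm ratios had 4 for day 14 minus day 7, 4 for any day and 5 for day 7 minus day 3.

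The 10 leading miRNAs held 67.88% in TMM-scaled CPM. With at least 100 counts per arm, 16 hairpins had a 5p share over 90%, 5 under 10% and 18 between. Thinned to 2815680 counts, libraries had 285.5 miRNAs of at least 10 counts, against 295.4 at full depth. Scaling by library size alone moved the median of all miRNAs to -0.145 for day 14 minus day 3. Over all named results, 528 alternatives left the result as it was, 251 lost a call, 17 gained one and 0 reversed the direction. The 528 include baseline shares, which have no test, and results that passed no threshold and stayed so. They are therefore no measure of how often a call was kept.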

Other observations

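Each control was placed on an axis that runs from the mean log2 CPM of the low dose group (0) to that of the high dose group (1) of 1 day, day 3 or day 14, over 328 miRNAs and with no control in the axis. On the day 3 axis the controls stood at -0.07, -0.15 and 0.13 on day 3, at 0.03, -0.40 and -0.34 on day 7 and at 0.04 and -0.05 on day 14. On the day 14 axis they stood at -0.02, -0.02 and 0.23 on day 3, at 0.07, -0.38 and -0.28 on day 7 and at 0.06 and 0.03 on day 14. On both axes day 7 replicates 2 and 3 were the lowest and day 3 replicate 3 the highest.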
